A study of Mus musculus with 23 samples.

Results

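Bone marrow-derived macrophages (BMDM) of MK2/3-/- mice, which lack both MK2 and MK3, were compared with BMDM of MK2-/- mice, which lack MK2 alone, after both had been kept in culture medium without LPS. The comparison used 7 of the 23 arrays of the series, 4 of MK2/3-/- and 3 of MK2-/- BMDM in medium, and covered all 26014 genes that could be tested. It asks what the loss of MK3 adds in resting cells from which MK2 is already missing. All animals were male C57BL/6 mice per the labels. The MK2-/- medium arrays came from mice of 10, 11 and 13 weeks, and the MK2/3-/- medium arrays from mice of 11, 12, 14 and 12 weeks. Bone marrow was differentiated with M-CSF (10 ng/ml) for 9 days, and medium cultures then received medium without LPS for 120 min. Both groups carry the Mapkapk2 deletion, and the Mapkapk3 deletion is the difference by design. For reference, LPS-treated BMDM (100 ng/ml, 120 min, 4 arrays per genotype, wt included) and wt BMDM in medium (4 arrays) are given beside the results. The wt mice were 12, 13, 13 and 12 weeks old. LPS-treated BMDM came from the cultures of the medium arrays, apart from MK2-/- replicate 3 (12 weeks), whose culture was taken to have no medium array. The deletions are constitutive, and BMDM lacking MK3 alone were not analysed here. All arrays of a genotype lay on a single slide, so that genotype and slide cannot be told apart.

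MK2 and MK3 are closely related serine/threonine kinases that are bound and activated by the stress kinase p38 MAPK. In macrophages stimulated with LPS they phosphorylate, among other substrates, proteins that bind AU-rich elements of cytokine mRNAs, such as tristetraprolin (Zfp36), and thereby govern the stability and translation of these transcripts. MK2 is the more abundant of the pair in most cells and stabilises p38 itself, and MK3 shares its substrates. In resting macrophages p38 activity is low.

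The BMDM carried the transcripts of macrophages. All 10 measured macrophage markers, among them Csf1r (the M-CSF receptor), Adgre1 (a surface receptor of mature macrophages) and Cd14, were well above background on all 7 medium arrays, and their differences between the genotypes lay between -0.38 and 0.57 on the log2 scale, with none past the adjustment. The summed signal of the macrophage list was 19.30 to 19.50 (log2) in MK2/3-/- and 19.40 to 19.57 in MK2-/- BMDM. Sums of the lists of other cells spread more widely between arrays, and those of the genotypes overlapped. For fibroblasts and endothelium the sum was 11.85 to 15.88 in MK2/3-/- and 12.25 to 15.14 in MK2-/- BMDM. For neutrophils and granulocyte precursors it was 11.56 to 14.20 and 12.42 to 13.16. Of 9 lists of other cells, none had a member past the adjustment, and Cdh5, an endothelial cadherin, was the member with an unadjusted p under 0.05 (difference 1.25). Some of their members were well above background on all 7 arrays, 5 of 9 for neutrophils and granulocyte precursors, 5 of 11 for fibroblasts and endothelium, 4 of 6 for osteoclasts, 2 of 7 for dendritic cells, 2 of 8 for T and NK cells, and 1 each for B cells, for mast cells, basophils and eosinophils, for erythroid cells and megakaryocytes, and for progenitors. The defining markers Cd79a and Pax5 of B cells, Cd8a, Klrb1c and Nkg7 of T and NK cells, and Cpa3, Fcer1a, Ms4a2 and Epx of mast cells, basophils and eosinophils were well above background on none. The part of other cells in the results was not tested. The share of probes well above background was 54.2 to 55.7% on the MK2-/- medium arrays. On the MK2/3-/- medium arrays it was 47.5% for replicate 1, 69.1% for replicate 2 and 54.3 to 55.9% for the others. Saturation was marked for no probe. In bulk RNA, fewer cells of a type and less RNA per cell cannot be told apart, and p-values measure the spread between these samples only. The LPS-treated array labelled MK2-/- replicate 3 went against its label: Xist was at 8.34 there and between 1.59 and 2.07 on the other 22 arrays, while the Y-linked genes Ddx3y, Eif2s3y, Kdm5d and Uty were between 1.76 and 2.15. It does not enter the means in medium, yet it enters the common estimate of the spread, and results are therefore given without it as well.

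In resting cells 12 genes differed between MK2/3-/- and MK2-/- BMDM, that is 0.0461% of the genes tested (limma on all 23 arrays, Benjamini-Hochberg adjusted p under 0.05). Of these, 8 were lower in MK2/3-/- BMDM (0.0308%) and 4 higher (0.0154%). The median difference over all genes was 0.00 on the log2 scale and the median absolute difference 0.17. At an unadjusted p under 0.05 there were 928 genes (3.57%), fewer than the 1301 that evenly spread p-values would give. The arrays of the groups did not overlap for 1676 genes (6.44%; 2.89% lower and 3.56% higher in MK2/3-/- BMDM), the 12 included. Each of the 12 was measured by a single probe, and 10 of them were well above background on all 7 arrays. Apart from Mapkapk3, none belongs to the p38, cytokine or interferon lists described below. The plot of signals by array shows 11 of them.

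**Figure D1:**
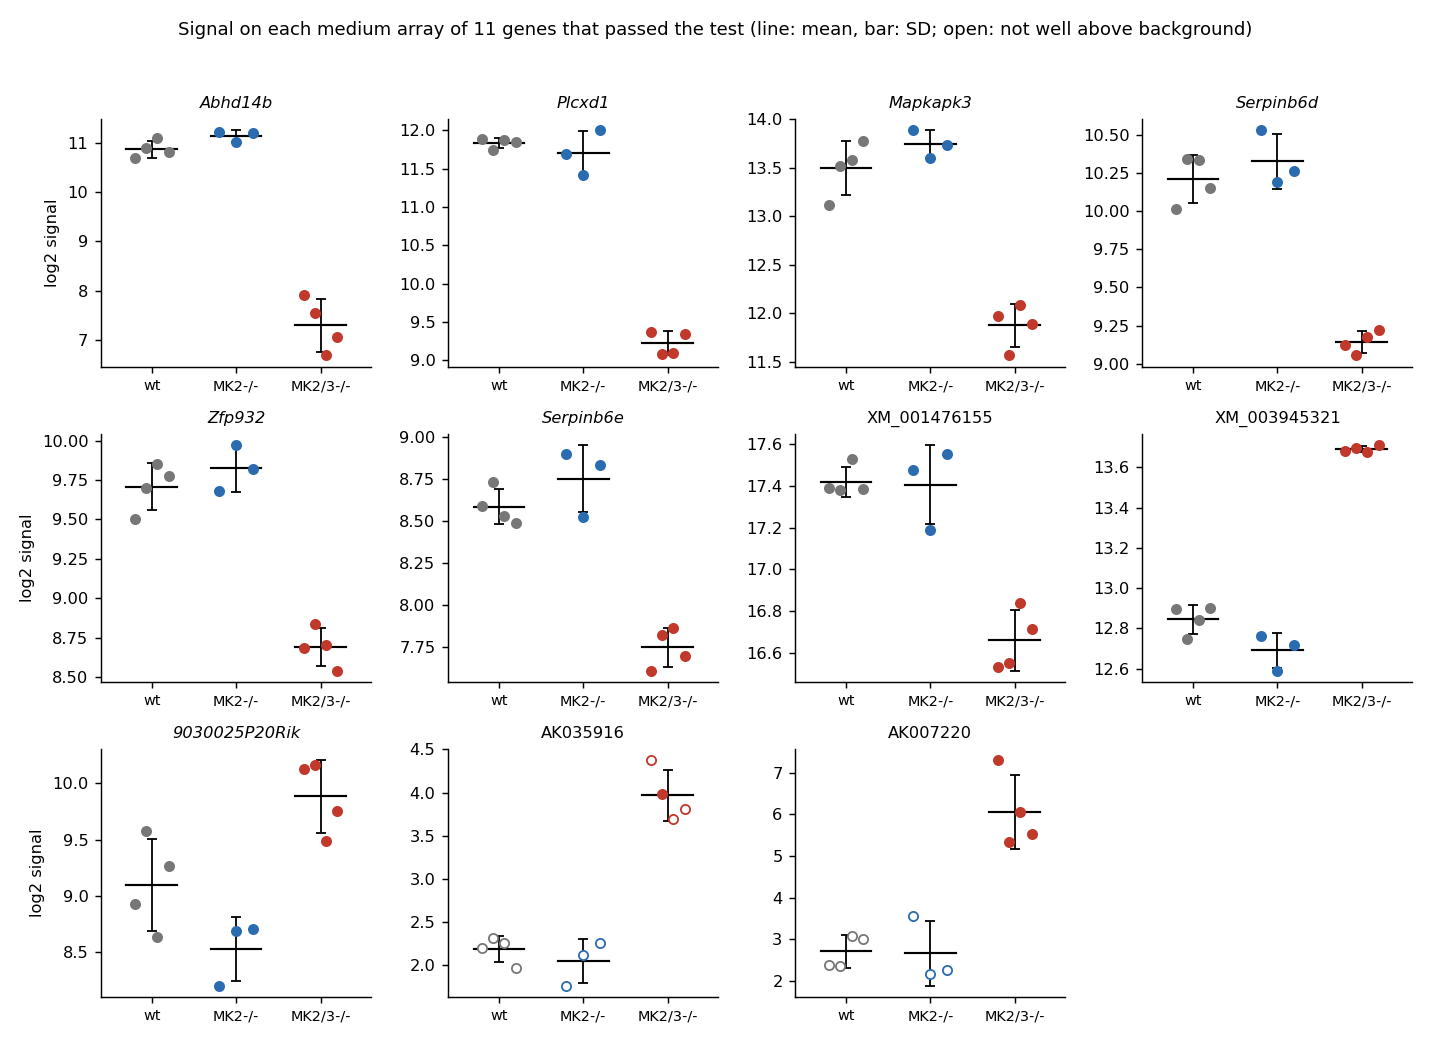
Log2 signal of 11 genes that differed between MK2/3-/- and MK2-/- BMDM in medium, on each medium array of wt (grey), MK2-/- (blue) and MK2/3-/- BMDM (red); lines are means, bars SD, and open symbols are signals not well above background. For each gene the 4 MK2/3-/- arrays lie on one side of all MK2-/- arrays, and the y axes differ between panels and do not start at 0.

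Mapkapk3, the gene of MK3, was lower in MK2/3-/- BMDM. Its log2 signal was 11.97, 11.56, 12.08 and 11.89 on the 4 MK2/3-/- arrays and 13.89, 13.60 and 13.73 on the 3 MK2-/- arrays. The groups lay apart by more than their spread, with a log2 difference of -1.86 (SE 0.18, adjusted p = 2.83e-05, limma), a 3.64-fold lower signal. The probe remained well above background on all 4 MK2/3-/- arrays. In wt BMDM it was at 13.50 ± 0.28 (SD, n = 4). After LPS the difference was larger, at -3.27 (SE 0.17), where the signal was 10.70 ± 0.26 in MK2/3-/- BMDM (SD, n = 4) and 13.98 ± 0.14 in MK2-/- BMDM (SD, n = 4). The effect after LPS minus that in medium was -1.41 (SE 0.25), the lowest p of all genes for this interaction, yet it did not pass the adjustment over all genes (adjusted p = 0.356).

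Mapkapk2, the gene of MK2, is deleted in both genotypes and served as a control. Its log2 signal was 8.61, 8.57, 8.91 and 8.79 in MK2/3-/- and 9.07, 8.73 and 8.94 in MK2-/- BMDM, and these values overlap. The difference was -0.19 with a 95% interval from -0.76 to 0.38. In wt BMDM the probe was at 12.22 ± 0.51 (SD, n = 4). Signal remained well above background on all 7 arrays of both knockouts, and after LPS it was 11.76 ± 0.34 in MK2/3-/- BMDM (SD, n = 4) and 11.96 ± 0.28 in MK2-/- BMDM (SD, n = 4), against 14.77 ± 0.49 in wt BMDM (SD, n = 4).

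Of the 12 genes, the one with the largest fold was Abhd14b, which encodes a protein with an alpha/beta-hydrolase fold. It was at 7.91, 7.54, 6.68 and 7.05 in MK2/3-/- BMDM against 11.23, 11.01 and 11.20 in MK2-/- BMDM. This is a log2 difference of -3.85 (SE 0.33, adjusted p = 5.87e-06, limma) and a 14.4-fold lower signal. Abhd14b lies on chromosome 9, as Mapkapk3 does, 16 measured genes before it. wt BMDM, at 10.87 ± 0.17 (SD, n = 4), resembled MK2-/- BMDM, from which they differed by 0.27 (SE 0.33) with the higher signal in MK2-/- BMDM.

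Plcxd1, which encodes a protein with the catalytic X domain of phosphatidylinositol-specific phospholipase C, had the lowest adjusted p of all genes. Its signal was 9.37, 9.08, 9.09 and 9.35 in MK2/3-/- BMDM and 11.69, 11.42 and 12.00 in MK2-/- BMDM. The groups were separated by -2.48 (SE 0.17, adjusted p = 1.96e-07), 5.59-fold. Zfp932, a zinc finger gene, is next to Plcxd1 in the gene order of chromosome 5. It was at 8.68, 8.83, 8.70 and 8.54 in MK2/3-/- and at 9.68, 9.97 and 9.82 in MK2-/- BMDM, a difference of -1.13 (SE 0.20, adjusted p = 0.0489). This call was lost in each of 8 fits that left out 1 array, with an adjusted p of up to 0.195. These fits left out 1 of the 7 medium arrays or the LPS-treated MK2-/- replicate 3.

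Serpinb6d and Serpinb6e, neighbours on chromosome 13, encode clade B serpins, intracellular inhibitors of serine proteases. Serpinb6d was at 9.13, 9.05, 9.18 and 9.22 in MK2/3-/- BMDM and at 10.53, 10.19 and 10.26 in MK2-/- BMDM (difference -1.18, SE 0.13, adjusted p = 0.000188). Serpinb6e was at 7.61, 7.82, 7.86 and 7.69 against 8.90, 8.52 and 8.83 (difference -1.01, SE 0.18, adjusted p = 0.0417). They were 2.27-fold and 2.01-fold lower in MK2/3-/- BMDM, with arrays that did not overlap. Serpinb6d was called in all 8 fits that left out an array, Serpinb6e in 1 of them (adjusted p up to 0.268). The other measured members of the family, looked at after these values were seen, showed smaller differences that did not pass the adjustment: -0.37 (SE 0.13) for Serpinb6a, -0.34 (SE 0.14) for Serpinb6c and -0.64 (SE 0.75) for Serpinb6b. As these paralogs are similar in sequence, a probe may detect more than one of them, and the values of Serpinb6d and Serpinb6e are not certain to be independent.

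Since Serpinb6d and Serpinb6e moved together, their promoters are shown, from 250 bases before to 50 bases after the annotated start (RefSeq, GRCm38.p6). The window of Serpinb6d, the more upstream of 2 in the table, is chr13:33661155-33661454 on the plus strand, and that of Serpinb6e is chr13:33843359-33843658 on the minus strand. Capitals mark runs of at least 10 bases found in both windows.
Serpinb6d: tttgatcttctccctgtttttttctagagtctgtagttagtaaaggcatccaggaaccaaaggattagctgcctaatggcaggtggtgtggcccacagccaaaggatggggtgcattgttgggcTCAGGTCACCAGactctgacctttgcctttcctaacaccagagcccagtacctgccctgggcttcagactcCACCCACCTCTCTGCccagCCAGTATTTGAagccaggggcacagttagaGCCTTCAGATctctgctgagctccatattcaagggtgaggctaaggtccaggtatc
Serpinb6e: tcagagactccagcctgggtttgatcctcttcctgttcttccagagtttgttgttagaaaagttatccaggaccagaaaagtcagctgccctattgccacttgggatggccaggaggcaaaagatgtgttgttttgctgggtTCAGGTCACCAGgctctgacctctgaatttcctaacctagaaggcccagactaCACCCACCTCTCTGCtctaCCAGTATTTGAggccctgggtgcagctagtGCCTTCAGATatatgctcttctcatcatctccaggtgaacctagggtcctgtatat
In a global alignment 216 of 323 columns were identical (66.9%), the longest shared run was 15 bases, and neither window held a CpG. This describes the paralogs and was not tied to a factor.

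Of the 4 genes that were higher in MK2/3-/- BMDM, 3 are known here by their accession only. The clone AK007220 was at 7.31, 5.34, 6.05 and 5.53 in MK2/3-/- BMDM, well above background on all 4 arrays, and at 3.56, 2.17 and 2.26 in MK2-/- BMDM, not well above background on any. With MK2-/- signals raised to the lowest level that is well above background, its mean signal was 5.67-fold higher in MK2/3-/- BMDM. That value compares means and is no lower limit of the difference. The fitted log2 difference was 3.39 (SE 0.44, adjusted p = 0.00179). The clone AK035916 was likewise not well above background in MK2-/- BMDM, but only on 1 of 4 MK2/3-/- arrays was it well above it. With MK2-/- signals raised in the same way, its mean signal was 1.33-fold higher in MK2/3-/- BMDM. This too is no lower limit, and most MK2/3-/- signals behind it were not well above background. The fitted log2 difference was 1.92 (SE 0.31, adjusted p = 0.0185). The predicted transcript XM_003945321 was at 13.68, 13.70, 13.67 and 13.71 against 12.76, 12.59 and 12.72 (difference 1.00, SE 0.15, adjusted p = 0.00885). The remaining one, 9030025P20Rik on chromosome 17, was at 10.13, 10.17, 9.49 and 9.76 against 8.21, 8.69 and 8.71 (difference 1.35, SE 0.24, adjusted p = 0.0417). Its wt signal of 9.10 ± 0.41 (SD, n = 4) was 0.57 above that of MK2-/- BMDM, the widest gap between wt and MK2-/- BMDM among the 12. It was called in 1 of the 8 fits that left out an array (adjusted p up to 0.321), AK035916 in 3 and XM_003945321 in 7. Finally, XM_001476155, one of the brightest signals, was 0.75 lower in MK2/3-/- BMDM, at 16.53, 16.55, 16.84 and 16.71 against 17.47, 17.19 and 17.55 (adjusted p = 0.0345), and was called in 2 of the 8 fits.

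wt BMDM in medium were nearer to MK2-/- than to MK2/3-/- BMDM for each of these genes, though 9030025P20Rik lay between the 2 knockouts. The MK2-/- minus wt difference of the 12 lay between -0.57 and 0.27, none passed the adjustment, and 9030025P20Rik had an unadjusted p of 0.0272 (3.42% of all genes were under 0.05; 4.63% between MK2/3-/- and wt BMDM). Over all genes, 2 passed it between MK2-/- and wt BMDM (0.00769%) and 20 between MK2/3-/- and wt BMDM (0.0769%). The comparisons share the MK2-/- or MK2/3-/- arrays and are therefore not independent of each other.

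**Figure D2:**
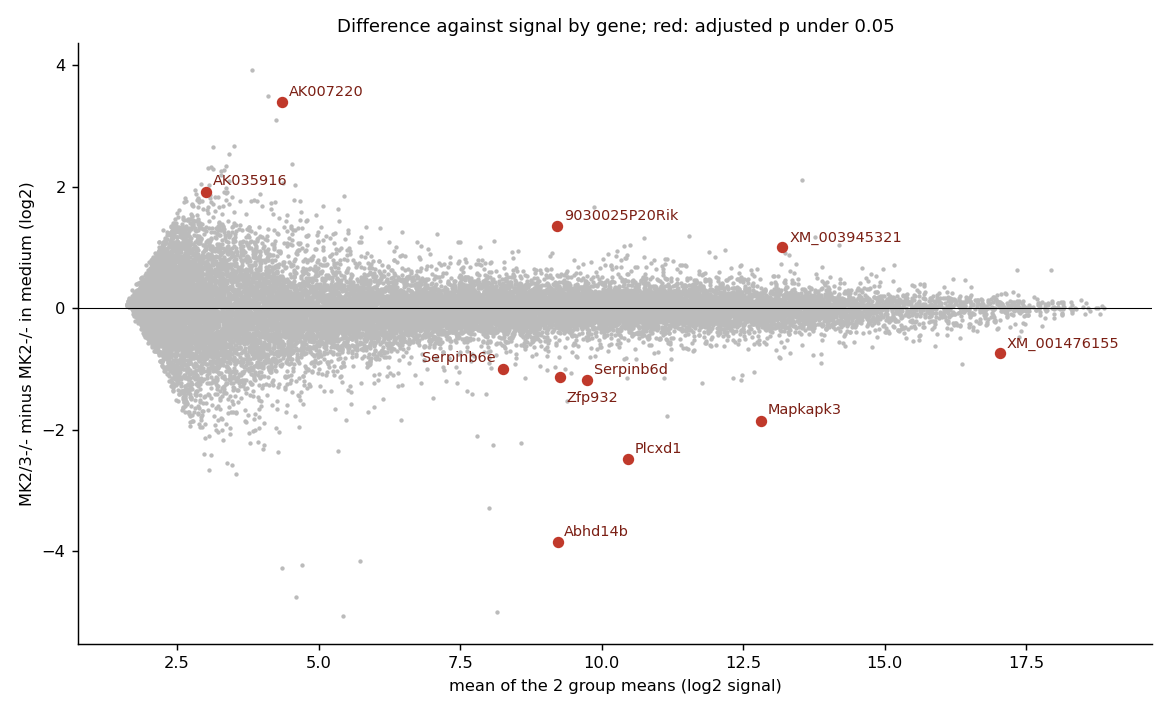
Difference between MK2/3-/- and MK2-/- BMDM in medium (y axis, log2) against the mean of both group means (x axis, log2 signal) for the genes tested, with 11 that passed the adjustment in red. Most of the 11 lie at signals where the grey cloud is narrow, and grey genes farther from 0 are at low signals or vary between arrays of a group.

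The test in medium rests on the spread estimated from all 23 arrays. When only the 7 arrays were fitted, or 6 of them with the experiment letter as a block, no gene passed the adjustment (846 and 1167 at an unadjusted p under 0.05), and the same was true of the methods' t-test on log2 values (1117). Without the LPS-treated MK2-/- replicate 3, 7 of the 12 remained called and no other was added. The count was 7 without MK2/3-/- medium replicate 1, 7 without replicate 2 and 6 without replicate 4. Abhd14b, Plcxd1, Mapkapk3, Serpinb6d and AK007220, 5 of the 12, were called in each of the 8 fits that left out 1 array. The remaining arrays, which also enter the spread, were not left out in turn for the test in medium.

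The surroundings of Mapkapk3 on chromosome 9 were examined because the genotypes differ by design at this locus. Of 50 measured genes, 25 on each side, 1 passed the adjustment, Abhd14b. At an unadjusted p under 0.05 there were 8 (16%, against 3.57% of all genes), 5 of them lower and 3 higher in MK2/3-/- BMDM, while the median difference of the 50 was 0.01. Around Mapkapk2, which is deleted in both genotypes, 0 of 50 genes passed the adjustment with limma and 2 (4%) had an unadjusted p under 0.05, namely Ubxn4 and Il24. Genes other than Abhd14b are named here after their values were seen.

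Abhd14b stood in a run of 4 adjacent measured genes that were lower in MK2/3-/- BMDM at an unadjusted p under 0.05 (limma). The genes from Tlr9 to Acy1, just before this run, had differences from -0.61 (Dusp7) to -0.001 (Rpl29), none at that threshold. After LPS these genes had differences of both signs, from -0.65 (Acy1) to 1.41 (Dusp7). Abhd14a, whose annotated span overlaps that of Abhd14b, was at 6.07, 5.94, 7.36 and 7.62 against 9.02, 8.32 and 9.23 in MK2-/- BMDM. The difference was -2.11 (SE 0.53), with no overlap between arrays, but the adjusted p was 0.475. Pcbp4, which encodes a poly(rC)-binding protein, was at 6.26, 6.24, 7.09 and 8.20 against 9.30, 8.84 and 9.48, a difference of -2.26 (SE 0.58, adjusted p = 0.560). For both genes the MK2/3-/- arrays spread over more than 1 log2 unit. Parp3, an ADP-ribosyltransferase of DNA repair, differed by -0.86 (SE 0.28, adjusted p = 1.00). After LPS the differences of this run were -2.24 for Abhd14a, -3.78 for Abhd14b, -1.74 for Pcbp4 and -0.74 for Parp3, and Abhd14b alone passed the adjustment there.

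Next to Mapkapk3 itself, Cish, a feedback inhibitor of cytokine receptor signalling, differed by -1.44 (SE 0.63) with overlapping arrays, and by 0.02 after LPS. Hemk1, a glutamine methyltransferase gene 2 positions away, was at 8.52, 8.59, 9.06 and 8.80 in MK2/3-/- BMDM and at 7.95, 8.18 and 8.19 in MK2-/- BMDM. This is a difference of 0.63 (SE 0.14, adjusted p = 0.318) without overlap between arrays. A second probe of Hemk1 differed by 1.48 (SE 0.26) and passed the adjustment when each of the 55681 probes was tested by itself (adjusted p = 0.0371; 0.0449% of probes passed). Tusc2, a tumour suppressor candidate, differed by 0.48 (SE 0.14, adjusted p = 0.908). Sema3b, a secreted semaphorin, was well above background on 3 of 4 MK2/3-/- arrays and on no MK2-/- array. With MK2-/- signals raised to the lowest level that is well above background, its mean signal was 2.85-fold higher in MK2/3-/- BMDM. That value compares means and is no lower limit of the difference. The fitted log2 difference was 1.75 (SE 0.63, adjusted p = 1.00). The plot along the gene order shows that differences of both signs occur on this stretch and that most of the 50 genes lie near 0.

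**Figure D3:**
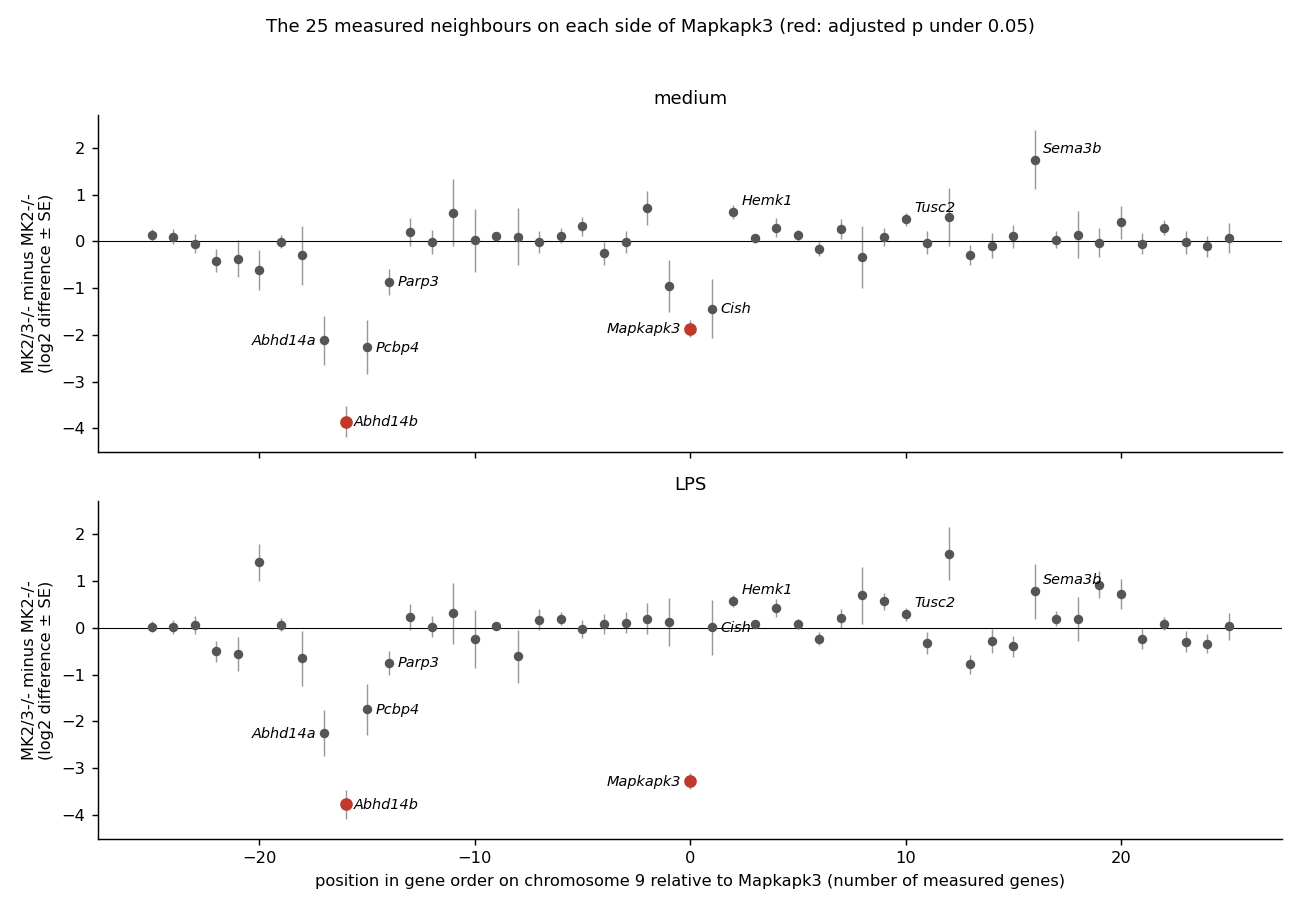
Log2 difference between MK2/3-/- and MK2-/- BMDM (± SE) of Mapkapk3 and its 25 measured neighbours on each side, in gene order on chromosome 9, in medium (top) and after LPS (bottom); red marks an adjusted p under 0.05. Mapkapk3 and Abhd14b, 16 positions away, are the red points in both panels, with Abhd14a and Pcbp4 low beside the latter.

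The medium and LPS arrays are separate arrays of the same cultures, apart from the LPS-treated MK2-/- replicate 3, whose culture was taken to have no medium array. The 12 genes were followed after LPS. All 12 had the same sign there, and 10 passed the adjustment, which is 83.3% of the genes called in medium and 23.8% of the 42 called after LPS (0.161% of all genes; 27 lower and 15 higher). Abhd14b differed by -3.78, Plcxd1 by -2.41, Serpinb6d by -1.02 and Zfp932 by -1.23, each close to its value in medium. Arrays did not overlap after LPS for 10 of the 12 (5.14% of all genes). The genes that did not pass the adjustment there were Serpinb6e (-0.71, adjusted p = 0.102) and AK035916 (1.08, adjusted p = 0.180). Without the LPS-treated MK2-/- replicate 3 the number called after LPS was 19, of which 8 were among the 12. No gene passed the adjustment for a difference between the effects in medium and after LPS with limma (748 at an unadjusted p under 0.05, 2.88%), and of the 12 Mapkapk3 alone had an unadjusted p under 0.05. Without the LPS-treated MK2-/- replicate 3, 1 gene passed it, Tlcd4. Apart from that replicate, the LPS arrays came from the cultures of the medium arrays. All shared their slides, and they are no independent samples.

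**Figure D4:**
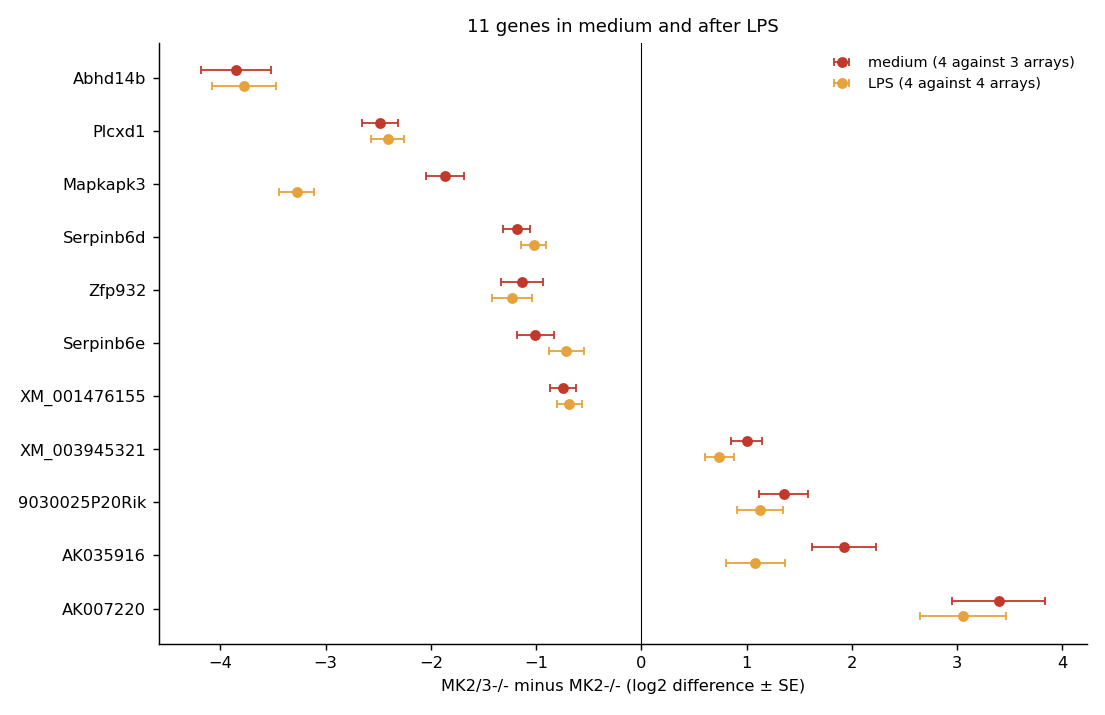
Log2 difference between MK2/3-/- and MK2-/- BMDM (± SE) for 11 of the 12 genes, in medium (red) and after LPS (orange). The pairs of points lie within about a log2 unit of each other except for Mapkapk3, which is at -1.86 in medium and -3.27 after LPS.

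Gene lists of signalling, inflammation, metabolism and other macrophage functions, most of them not known MK2/3 targets, were described as groups. Among 417 distinct genes of 16 lists, 1 passed the adjustment, Mapkapk3 itself, and 7 had an unadjusted p under 0.05 (1.68%, against 3.57% of all genes). The lists, apart from the sex-linked genes, had medians between -0.17 and 0.11 on the log2 scale, against 0.00 over all genes. They were chosen with results of these data known, and their medians are a description.

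Of 36 measured members of the p38 MAPK cascade, Mapkapk3 was lower and no other member passed the adjustment. The next lowest p were those of Map3k7, the kinase TAK1, with a difference of -0.27 (95% interval -0.60 to 0.05), and Mapk8, the kinase JNK1, with 0.71 (-0.14 to 1.56). Named after its values were seen, Mapk14, which encodes p38 alpha, differed by -0.07 (-0.51 to 0.37), and Mapkapk5, a further MAPKAP kinase, by 0.15 (-0.09 to 0.40). Of 24 genes for AU-rich element binding proteins and MK2/3 substrates none passed it, and none had an unadjusted p under 0.05. The lowest p belonged to Pabpc1 (-0.28, 95% interval -0.58 to 0.02), the poly(A)-binding protein, Rcsd1 (-0.46, -1.01 to 0.10), which encodes CapZIP, and Vim (-0.49, -1.20 to 0.21), vimentin. Zfp36 differed by -0.01, with an interval from -0.81 to 0.79, and was also picked afterwards, like Hspb1, the heat shock protein HSP27. Hspb1 ranged from 6.90 to 12.12 among the 4 MK2/3-/- arrays and from 8.14 to 11.46 among the MK2-/- arrays, so that its difference of -0.09 has an interval from -3.24 to 3.05.

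Among 36 measured cytokines and chemokines, 20 of which were well above background on all 7 arrays, none passed the adjustment, and the median was 0.11. Ccl4, the chemokine MIP-1 beta, was at 14.36, 14.30, 13.11 and 13.24 in MK2/3-/- and at 12.29, 13.21 and 13.14 in MK2-/- BMDM. These values overlap, and the difference of 0.88 (95% interval 0.08 to 1.68) had an unadjusted p of 0.0332 and an adjusted p of 1.00. Ccl17 differed by 1.23 (-0.23 to 2.70), while Il1a was well above background on 1 of 4 MK2/3-/- arrays and on no MK2-/- array. Of cytokines picked afterwards for their known dependence on MK2, Tnf was at 10.80, 10.48, 8.90 and 9.97 in MK2/3-/- and at 9.03, 10.41 and 10.07 in MK2-/- BMDM, and differed by 0.20 (-0.64 to 1.04). Il10 differed by 0.13 (-0.93 to 1.19), Cxcl2 by 0.01 (-1.02 to 1.04) and Il6 by -0.13 (-2.08 to 1.82). The intervals of Cxcl2 and Il6 reach past a log2 difference of 1 in both directions, and those of Tnf and Il10 on the higher side only. Ifnb1 was between 1.94 and 3.09 on the 7 arrays and well above background on 1 of them. Of 34 interferon-stimulated genes none passed the adjustment or an unadjusted p under 0.05, and Bst2 (tetherin), with the lowest p, differed by 0.49 (-0.23 to 1.22).

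Of 33 genes of TLR4 and NF-kB signalling none passed the adjustment. The adaptor Ticam2 (TRAM) was at 5.62, 5.65, 5.72 and 5.63 in MK2/3-/- BMDM and at 6.65, 6.14 and 6.22 in MK2-/- BMDM. The groups did not overlap and differed by -0.68 (95% interval -1.22 to -0.14), with an adjusted p of 1.00. Irak3 differed by -0.29 (-0.62 to 0.04) and Rel by -0.39 (-0.86 to 0.08). Among the 35 macrophage surface and scavenger receptors, Cd36, a receptor for oxidised lipoproteins, differed by 0.91 (0.11 to 1.71) with overlapping arrays. Marco, a scavenger receptor, was at 11.53, 10.43, 10.33 and 8.77 against 12.01, 12.34 and 11.76 in MK2-/- BMDM, and its difference of -1.77 had an interval from -4.03 to 0.48. In wt BMDM Marco ranged from 7.30 to 12.29.

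Of 23 genes of cholesterol synthesis and efflux, which had the lowest median apart from the sex-linked genes (-0.17 against -0.32), none passed the adjustment. A difference above 0 was found for 5 of them. It was found for 7 of 27 genes that vary between laboratory strains, 6 of 20 of antigen presentation and 17 of 23 of glycolysis. Stard4, a sterol carrier, was at 6.47, 6.68, 7.53 and 7.62 against 7.63, 7.87 and 8.01, a difference of -0.76 (95% interval -1.35 to -0.18) with an unadjusted p of 0.0134. Srebf1, the gene of the transcription factor SREBP-1, differed in the other direction, by 0.46 (0.06 to 0.87). The lists of immediate-early genes (23 measured), antigen presentation (20), cell cycle (29), glycolysis (23), lysosome (29), oxidative stress defence (23), complement and serpins (18) and genes that vary between laboratory strains (27) held no called gene. Within them Serpinb6a alone had an unadjusted p under 0.05. The 5 sex-linked genes did not differ past the adjustment in medium, where Xist was between 1.65 and 1.84 on the 7 arrays.

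**Figure D5:**
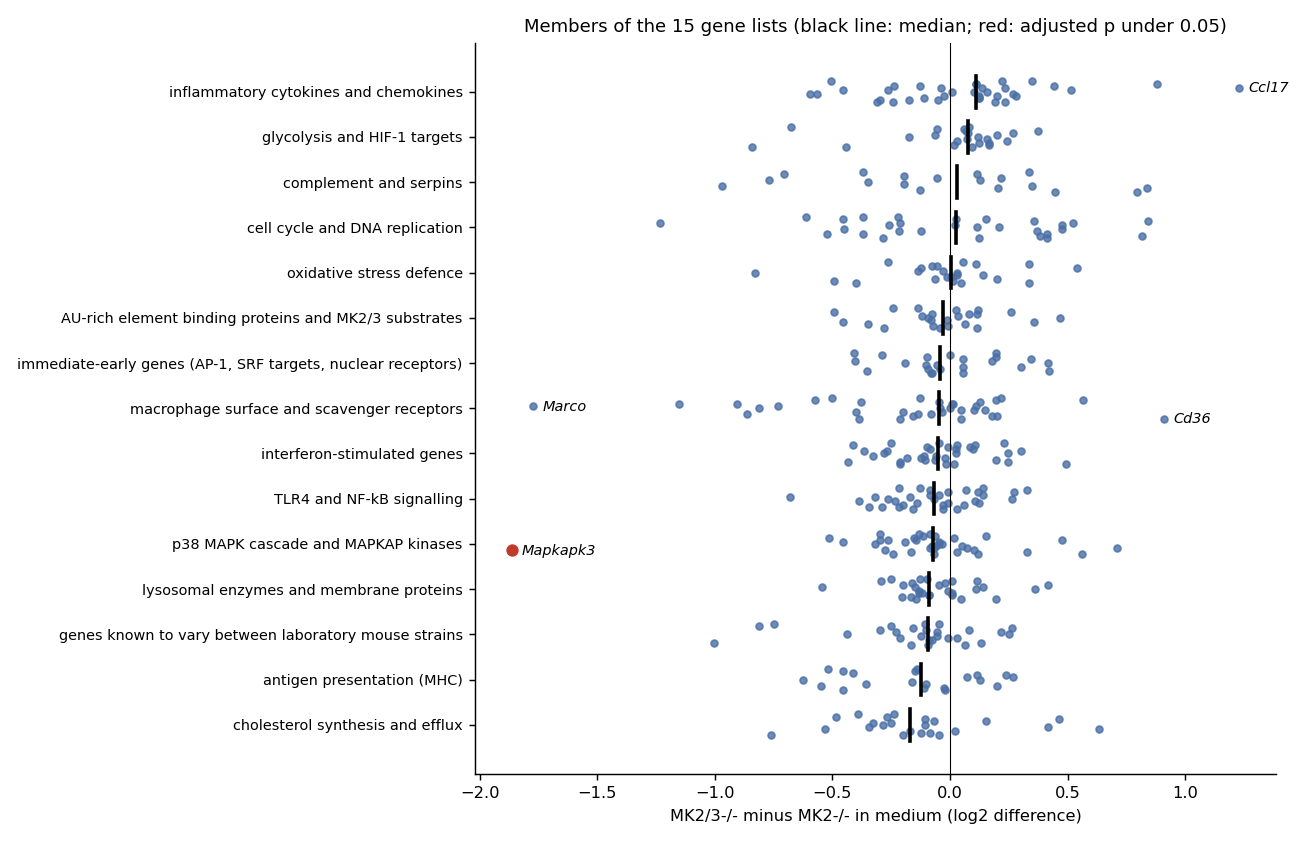
Log2 difference between MK2/3-/- and MK2-/- BMDM in medium for each measured member of 15 gene lists (1 point per gene), with the median of each list as a black line and adjusted p under 0.05 in red. Medians lie between -0.17 and 0.11, and Mapkapk3 is the red point.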

How the data were processed

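RNA of 23 BMDM samples was hybridised, 1 sample per 1-colour Agilent mouse array. The authors' deposited intensity (Feature Extraction 11.0.1.1) is linear, background-subtracted and not normalized between arrays. The authors also deposited log2 values (quantile normalized, relative to each probe's median), which correlated with the values used here at r = 1.00. Control spots and spots marked as non-uniform or outliers were left out, signals log2 transformed, replicate spots averaged and 55681 probes quantile normalized over 23 arrays (R 4.3.3, limma 3.58.1). The 29150 RefSeq and 3735 GenBank probes were used, of which 27509 matched a GRCm38.p6 gene table. Where a gene had several probes, the one most induced by LPS in wt BMDM was taken. Coordinates of that build are given for promoters only. One linear model with 6 groups (lmFit, eBayes) was fitted to all arrays, two-sided, with Benjamini-Hochberg adjustment over 26014 genes. Adjusted p-values are from limma unless stated. The thresholds of detection are the scanner software's marks for signals well above background. Replicates were said to come from independent experiments. Arrays with the same experiment letter in both genotypes deviated together in medium (r = 0.140 to 0.306 in 3 pairs), as did medium and LPS arrays of a culture (0.0657 to 0.305 in 7 pairs). Over genes well above background on all 23 arrays, r was 0.129 to 0.465 and 0.359 to 0.720. The main fit treated arrays as independent. The third MK2-/- medium array was taken to belong to the fourth MK2-/- culture, whose experiment letter and age of 13 weeks it shares, although its replicate number is 3; both blocks and these pairs depend on this. Named genes were Mapkapk2 and Mapkapk3, up to 12 called genes in each direction that were well above background on all arrays of a group, called genes among 25 neighbours on each side of both loci, called members of each list or otherwise its 3 lowest p, the sex-linked genes and cell type markers; others are said to be picked afterwards. The genes, lists and rules were chosen with earlier results of these data known. Alternatives covered scaling, background correction, detection, probe choice, array weights, blocks, the groups fitted, the methods' t-test and leaving out arrays. The procedure was also run on simulated data with independent arrays, which cannot show how it behaves where arrays deviate together. Figures and sequences were made with Python 3.11.15, matplotlib 3.10.9 and Biopython. The values of 1 of the 12 called genes are not reported here, and it is left out of the figures.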

Additional observations from a re-analysis of the deposited data

Results flagged for a closer look

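Groups of 4 arrays were examined for the 12 called genes, Mapkapk2 and the share of probes well above background. Of 56 such groups, 3 held an array that stood apart from the other 3 by Dixon's ratio, where chance gives about 1 in 20. Abhd14b in LPS-treated MK2-/- BMDM was at 10.17 on one array and 10.67 to 10.70 on the others (ratio 0.950). XM_001476155 in wt BMDM in medium was at 17.53 on one array and 17.38 to 17.39 on the others (ratio 0.926). Mapkapk2 in LPS-treated MK2/3-/- BMDM was at 12.26 on one array and 11.54 to 11.65 on the others (ratio 0.851).

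Probes without an NCBI accession were outside the comparison of genes. When each of the 55681 probes was tested by itself, 25 passed the adjustment (0.0449%), of which 10 had no such accession. Of these, 8 were well above background on all arrays of a group, and all were lower in MK2/3-/- than in MK2-/- BMDM in medium. By log2 difference they were chr1:134171292-134176062_R (-1.74), A_55_P1991377 (-1.28), NAP095481-001 (-1.18), A_55_P2095010 (-1.15), chr9:81537835-81583227_R (-1.09) and chr6:35201798-35217831_R (-1.09), NAP068632-1 (-1.01) and NAP093832-001 (-0.98).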

How the results depend on the processing

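The differences of the 12 called genes and of Mapkapk2 kept their sign under all alternatives run, and other single genes were not recomputed. The number of genes called in medium, 12 as reported, was 6 after scaling to the 75th percentile (which moved the median difference of all genes from 0.00 to 0.16), 19 with array weights, 25 with each probe tested by itself, 2 with the methods' t-test on linear values and 0 with it on log2 values, with the groups compared alone, or with the experiment letter as a block in 6 medium arrays. With the letter as a block in all arrays it was 14, with the culture as a random block 10, and it was 6 to 14 without 1 medium array. Without the LPS-treated MK2-/- replicate 3, an alternative chosen after seeing the data as were the test of each probe and the letter block in all arrays, it was 7. After LPS, 42 genes became 25 (75th percentile), 8 (groups compared alone), 3 and 2 (methods' t-test on log2 and linear values) and 95 (letter block in all arrays), and 19 to 113 without 1 array, the highest without MK2/3-/- replicate 4. The interaction, 0 as reported, gave 1 gene with signals under 5 set to 5, 5 genes without MK2/3-/- medium replicates 1 and 2, and 0 to 1 without 1 array. Among the neighbours of Mapkapk3, 1 called gene became 2 with normexp background, the mean over probes, array weights or the letter block in all arrays, and 0 with the groups compared alone, the t-test on log2 values or the letter block in 6 arrays. The gene lists, with 1 called gene, had 0 with the groups compared alone, both t-tests and the letter block in 6 arrays. There Mapkapk3 was at -1.86 (adjusted p = 0.118), -1.86 (0.259), -1.86 (0.350) and -1.93 (0.875), and without 1 medium array it was at -1.93 to -1.76, and Mapkapk2 at -0.28 to -0.11. The cause of these shifts was not tested. Probes near background limit the low end, since 13531 of 26014 genes were well above it on all 7 arrays.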

Other observations

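The genes with the widest mean differences were mostly not those called. A difference of more than 3 log2 units was found for 12 genes, of which 2 (Abhd14b and AK007220) passed the adjustment and 8 fell below 1 log2 unit when 1 array was left out. Of these 8, 6 were high on MK2-/- medium replicate 2: Scgb2b26 (17.05, other arrays of the series at most 4.50), Olfr165, Retnla, Bmp8b, AK018486 and Amer3. Retnla, a marker of alternatively activated macrophages, was at 15.35 there and at most 2.73 on the other 22 arrays. Pcdh20 and NM_001206926 were high on MK2/3-/- medium replicate 1, at 15.33 and 15.13. Over all 23 arrays, 104 gene values lay more than 5 log2 units above those of every other array, with 0 to 15 per array.

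The remaining genes of these 12 did not fall below 1 log2 unit without any 1 array, yet did not pass the adjustment. All genes named in these paragraphs were chosen after their values were seen. Adgrg5, an adhesion G protein-coupled receptor, was at 5.94, 5.26, 6.20 and 5.82 in MK2/3-/- BMDM in medium and well above background on all 4 arrays, against 2.11, 2.66 and 3.33 in MK2-/- BMDM, where it was above it on none (adjusted p = 0.0906). After LPS its difference was 3.43 and passed the adjustment (adjusted p = 0.00932). NM_133362 was at 4.90, 4.83, 4.73 and 8.16 against 9.12, 13.03 and 9.84 (SE of the difference 1.38, adjusted p = 0.740, limma), and wt BMDM ranged from 8.49 to 13.49.

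Hpgd, which encodes the prostaglandin-degrading 15-hydroxyprostaglandin dehydrogenase, was low in 1 MK2-/- culture only, at 8.01 in medium and 7.62 after LPS, where the other arrays of the compared groups were at 13.44 or above. Kitl, the ligand of Kit, was at 8.85, 8.06, 6.29 and 6.67 in MK2/3-/- and at 9.70, 10.07 and 9.29 in MK2-/- BMDM in medium (difference -2.22, SE 0.51, adjusted p = 0.318).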
